A study of Mus musculus with 32 samples.

Results

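F-box proteins were followed through the first wave of spermatogenesis in mouse germ cells. The members were the protein-coding genes of the GENCODE M21 annotation whose symbols begin with Fbxl, Fbxo or Fbxw and a number. Of 77 such genes, 59 were in the gene table of 20368 genes, with 16 Fbxl, 34 Fbxo and 9 Fbxw genes. Poly-A RNA was sequenced from germ cells of male C57BL/6J mice at 8 days postpartum (dpp) in 3 mice and at 10, 12, 14, 16 and 18 dpp in 5 mice each, none of them pooled. The cells came from enzymatically dissociated seminiferous tubules that had been washed to remove interstitial cells. They form a mixture of spermatogonia and, with age, progressively later meiotic cells. Markers of Sertoli, peritubular, Leydig and other somatic cells were also measured in these samples, at the levels given below. A separate table held 4 samples of adult spermatocytes at 9 weeks, pooled from several mice each and enriched for pachytene/diplotene cells by sedimentation at unit gravity. Levels are in TPM, which corrects for transcript length and scales every sample to a fixed total.

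F-box proteins are the interchangeable substrate receptors of SCF ubiquitin ligases, in which the adaptor SKP1 links the F-box to the cullin scaffold CUL1 and the RING protein RBX1 recruits the ubiquitin-conjugating enzyme. The letters of the symbol give the substrate-binding region, with leucine-rich repeats in Fbxl, WD40 repeats in Fbxw and other domains in Fbxo. In germ cells, SCF ligases are known for turnover of cell-cycle regulators, and a few F-box proteins act outside SCF as inhibitors of the anaphase-promoting complex (APC/C), the ligase that drives exit from meiotic and mitotic divisions.

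On the log2(TPM + 1) scale, Fbxw10, Fbxo36 and Fbxw5, with Fbxo43 and Fbxo15, had the 5 largest rises from 8 to 18 dpp. Fbxo17 had the largest fall. Promoter sequences are shown for Fbxw10, Fbxo36, Fbxw5 and Fbxo17, because these genes set the extremes of the family on that scale. Each is the 250 bases before the RefSeq transcript start in build GRCm38.p6, plus strand, and RefSeq windows matched 45 of the 59 members. The windows are chr11:62846873-62847122 for Fbxw10, chr1:84839591-84839840 for Fbxo36, chr2:25500500-25500749 for Fbxw5 and chr7:28716540-28716789 for Fbxo17, whose window ends 83 bases from the start of its most abundant transcript, Fbxo17-203. Capitals mark matches, on either strand, to any of 7 motifs.
Fbxw10: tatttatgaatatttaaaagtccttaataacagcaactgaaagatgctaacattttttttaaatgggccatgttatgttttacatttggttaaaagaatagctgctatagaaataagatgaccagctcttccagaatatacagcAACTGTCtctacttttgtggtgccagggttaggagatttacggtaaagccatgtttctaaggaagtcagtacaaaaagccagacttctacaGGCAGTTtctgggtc
Fbxo36: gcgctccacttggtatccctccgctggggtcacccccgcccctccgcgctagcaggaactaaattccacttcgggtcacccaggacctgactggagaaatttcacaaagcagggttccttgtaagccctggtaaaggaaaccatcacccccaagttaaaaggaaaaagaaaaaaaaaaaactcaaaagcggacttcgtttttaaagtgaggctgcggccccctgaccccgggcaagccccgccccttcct
Fbxw5: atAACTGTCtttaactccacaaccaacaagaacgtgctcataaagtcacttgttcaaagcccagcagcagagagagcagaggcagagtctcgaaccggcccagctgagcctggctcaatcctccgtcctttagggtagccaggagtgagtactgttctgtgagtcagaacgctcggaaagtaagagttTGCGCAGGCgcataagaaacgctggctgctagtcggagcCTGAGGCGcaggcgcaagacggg
Fbxo17: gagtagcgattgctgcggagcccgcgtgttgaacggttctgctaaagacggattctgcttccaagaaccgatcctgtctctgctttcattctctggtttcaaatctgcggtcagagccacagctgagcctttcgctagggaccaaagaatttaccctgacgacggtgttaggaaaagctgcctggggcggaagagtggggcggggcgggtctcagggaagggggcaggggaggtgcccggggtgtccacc
The motifs were those of A-MYB (AACTGNC), RFX (GTTGCCA), the CRE (TGACGTNA), E2F (TTTNGCGC), STRA8 (CNCCTCAG), the E-box (CACGTG) and NRF1 (TGCGCANGC), all for factors active in meiotic or proliferating germ cells. Fbxw10 held A-MYB matches 106 to 100 and 15 to 9 bases before the start. Fbxw5 held an A-MYB match 248 to 242 bases, an NRF1 match 62 to 54 bases and a STRA8 match 23 to 16 bases before the start, and no matches overlapped. Fbxo36 and Fbxo17 held none. The A-MYB motif was in 7 of the 45 member windows (15.6%) and in 10.6% of all 32536 windows. By direction from 8 to 18 dpp, 3 of the 14 risen members with a window and 2 of the 14 fallen members held it. STRA8 matches were in 4 member windows (8.89%, against 6.46% of all), NRF1 in 2 (4.44% against 3.48%), the E-box in 2 (4.44% against 6.04%) and the CRE in 1 (2.22% against 2.53%). E2F and RFX matches were in no member window, against 1.14% and 3.66% of all windows. A match describes the letters of the window and does not show that a factor binds there.

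The samples also differed in cell makeup. The summed level of 9 spermatocyte markers rose from between 224 and 332 TPM at 8 dpp to between 3064 and 4663 TPM at 18 dpp, while 8 Sertoli cell markers fell from between 1871 and 2085 TPM to between 699.8 and 966 TPM. By limma from 8 to 18 dpp, all 8 spermatocyte markers in the gene table rose, 7 of 8 Sertoli markers fell and 1 rose, and all 6 spermatogonium markers fell, from a sum of 1013 to 1138 TPM to one of 454 to 655 TPM. Peritubular markers summed to 1051 to 1159.96 TPM at 8 dpp and 524 to 1034 TPM at 18 dpp, with 1 of 5 lower. Leydig cell markers (3 of 6 higher), macrophage markers (3 of 4 higher), endothelial markers (1 of 4 higher, 1 lower) and red blood cell markers (0 of 5 changed, and 0 at an unadjusted p under 0.05) summed to 472 TPM or less each at these 2 ages, except for red blood cell sums of up to 681 TPM at 8 dpp. Within 18 dpp, mice 4 and 5 stood apart, with spermatocyte sums of 3079 and 3064 TPM over the 8 markers in the gene table, against 4477, 4662 and 4595 TPM in mice 1 to 3. In the same order, their Sertoli sums were 966 and 926 TPM against 707, 699.8 and 723 TPM. The part of cell makeup in the members' differences was not tested. In bulk samples, fewer cells of a type and less RNA per cell cannot be told apart. All 13 barcodes in the titles of the 8 to 12 dpp libraries recur among the 15 of the 14 to 18 dpp libraries. The labels name no sequencing pool. If these sets were sequenced in separate pools, a pool effect and age cannot be told apart across them. This holds for the step between 12 and 14 dpp and for 8 to 18 dpp alike. Depth is unknown because the tables hold TPM, so no counting error is given. The use of strand in quantification is not given in the sources used here, and several members overlap another gene: Fbxw10 overlaps Trim16 on the same strand, and Fbxo36 with Trip12, Fbxw5 with C8g, Fbxo15 with Timm21, Fbxo11 with Msh6, Fbxo10 with Polr1e, Fbxo3 with 4931422A03Rik and Fbxl13 with Lrrc17 on the opposite strand. So do Fbxl5 with Bst1, Fbxl14 with Wnt5b, Fbxl12 with Ubl5, Fbxl2 with Ubp1, Fbxl15 with Cuedc2, Fbxl22 with Herc1, Fbxo22 with Nrg4, Fbxo46 with Qpctl, Fbxo31 with Gm20388, Fbxw4 with Gm17018 and Fbxw7 with Gm37240, and further members overlap noncoding genes or pseudogenes. Their values are uncertain to that degree.

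Most of the 59 members were expressed throughout. They are those of the 77 F-box genes that reached 3 TPM in a mouse. In all, 50 of the 59 members were at 3 TPM or more in every one of the 28 mice. The share of all genes at that level in every mouse was not computed. The median of the members' mean levels was 21.2 TPM, and 46 members had a mean between 10 and 100 TPM. Fbxo21 was highest with a mean of 216 TPM over the 28 mice. Fbxw5, Fbxl5, Fbxl19, Fbxw2 and Fbxw11 followed in that order, and Fbxo34 was also among the 8 highest. Means were under 3 TPM in 6 members. Fbxl13, Fbxl21 and Fbxo40 reached 3 TPM in 1 mouse each and Fbxo2 in 2 mice. The 18 genes outside the gene table did not reach 3 TPM in any of the 28 mice or were in neither table. Among them were 14 genes on chromosome 9, a cluster of related Fbxw copies that may share reads, and Fbxl8, Fbxl16, Fbxo24 and Fbxo39.

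The summed level of the 59 members was higher at 18 than at 8 dpp without overlap between mice, and a growing share of it came from a few genes. Its medians over the mice of the 6 ages, youngest first, were 1951, 1959, 2039.5, 2086, 2144 and 2287 TPM, with a range of 1880.02 to 1954 TPM in the youngest mice and of 2200.1 to 2331 TPM in the oldest. Fbxw5 alone supplied 3.87% of the sum in the youngest group, and 4.30%, 7.23% and 13.7% in the last 3 ages. The 5 highest members supplied 29.1% of the sum at 8 dpp and 36.0% at 18 dpp. In the adult pachytene/diplotene samples, where the sum was 2293 to 2336 TPM, Fbxw5 supplied 29.8% and the 5 highest members 62.6%. Fbxw5 ranked 10 among the members at 8 dpp and 1 at 18 dpp and in the adult samples. Fbxw10 ranked 59 of 59 at 8 dpp, 14 at 18 dpp and 3 in the adult samples.

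**Figure D1:**
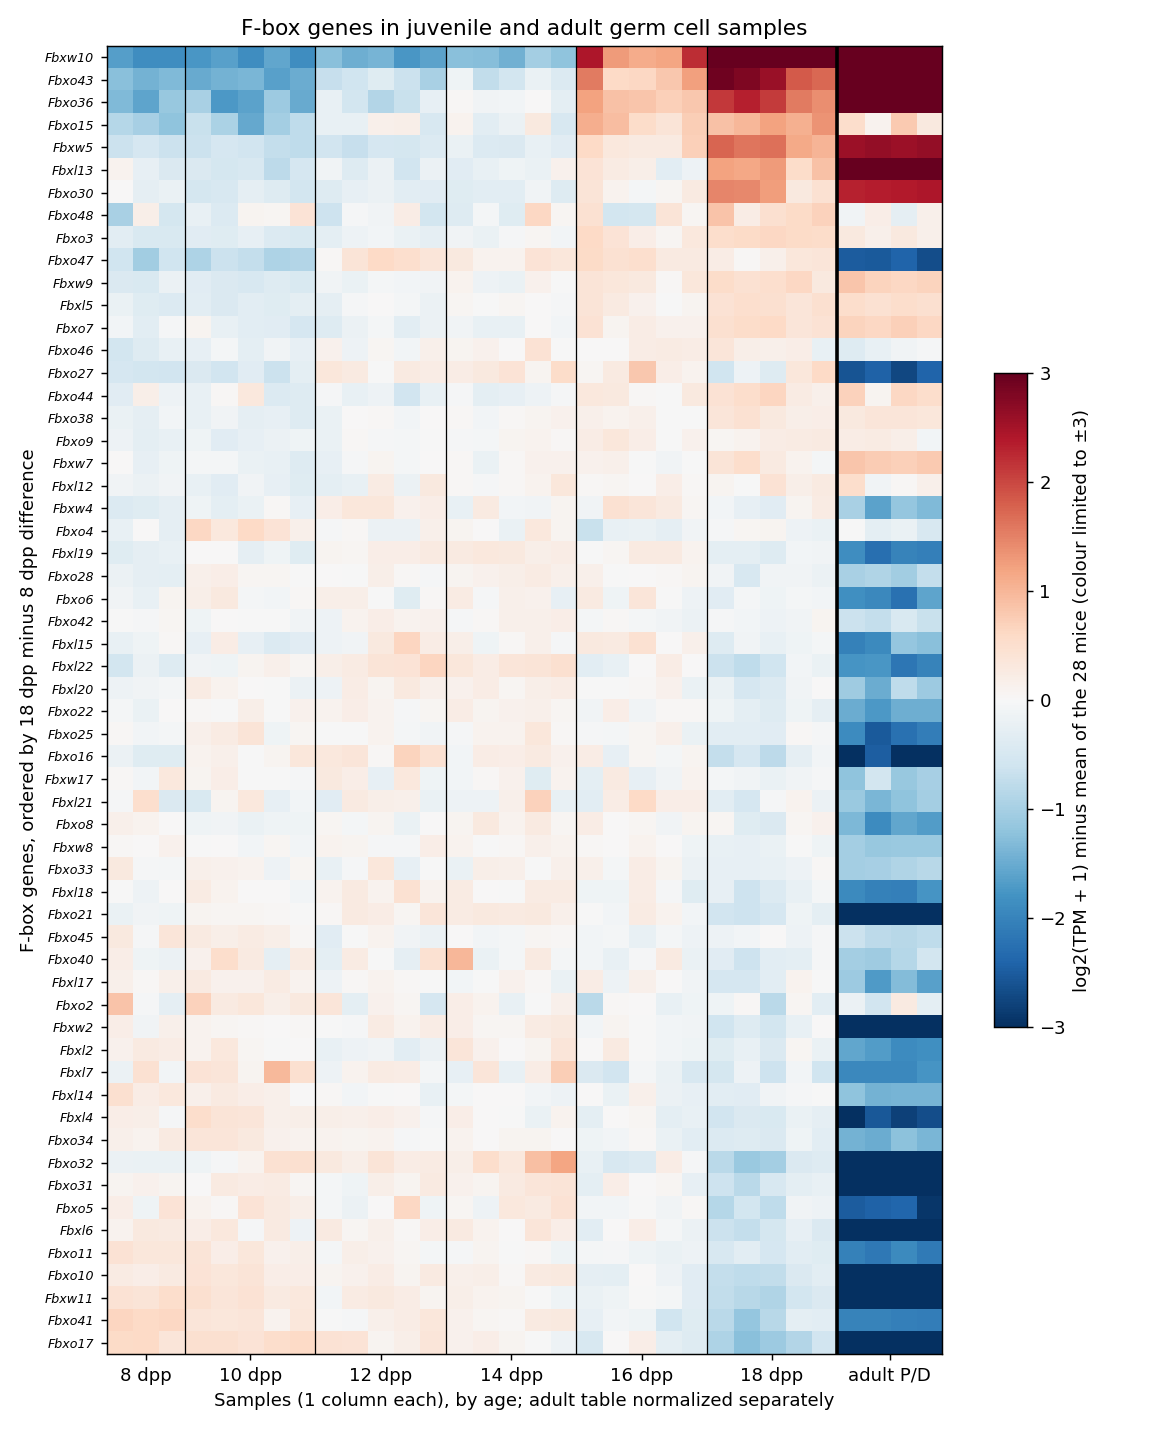
Heat map of 58 F-box genes (rows, ordered by the difference from 8 to 18 dpp) in the 28 juvenile mice and 4 adult samples (columns), colored by log2(TPM + 1) minus the mean of the 28 mice and limited to ±3. The uppermost genes turn red from 16 dpp on, and most of the lower genes are blue in the adult samples.

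Most members differed among ages, in a share near that of protein-coding genes. With limma on log2(TPM + 1) over the 6 ages, 52 of 59 members (88.1%) differed among ages at an adjusted p under 0.05, beside 77.6% of all genes tested and 86.2% of protein-coding genes. From 8 to 18 dpp, 20 members rose (33.9%, beside 31.8% of all genes and 33.1% of protein-coding genes). Over the same ages 19 fell (32.2%, beside 36.3% of all genes and 41.4% of protein-coding genes). The share that rose was near both backgrounds. The share that fell was below both, a difference that was not tested. The members' median log2 difference was -0.16, the median of all genes was -0.09 and that of protein-coding genes -0.11. By subfamily, 3 Fbxl genes rose and 6 fell of 16, 13 Fbxo genes rose and 10 fell of 34, and 4 Fbxw genes rose and 3 fell of 9. The values of the 2 ages did not overlap in 16 of the 20 risen members (80%, beside 89.1% of all risen genes) and 14 of the 19 fallen members (73.7%, beside 85.3% of all fallen genes). The balance depended on the scaling between mice: 23 rose and 14 fell with median-of-ratios scaling, and 18 rose and 32 fell with quantile normalization, under which the median of all genes was 0.05 and -0.26. Without mice 4 and 5 of 18 dpp, an alternative chosen after seeing the data, 18 rose and 25 fell, with Fbxo27 and Fbxl12 (adjusted p = 0.350 and 0.0534) no longer among the rises.

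**Figure D2:**
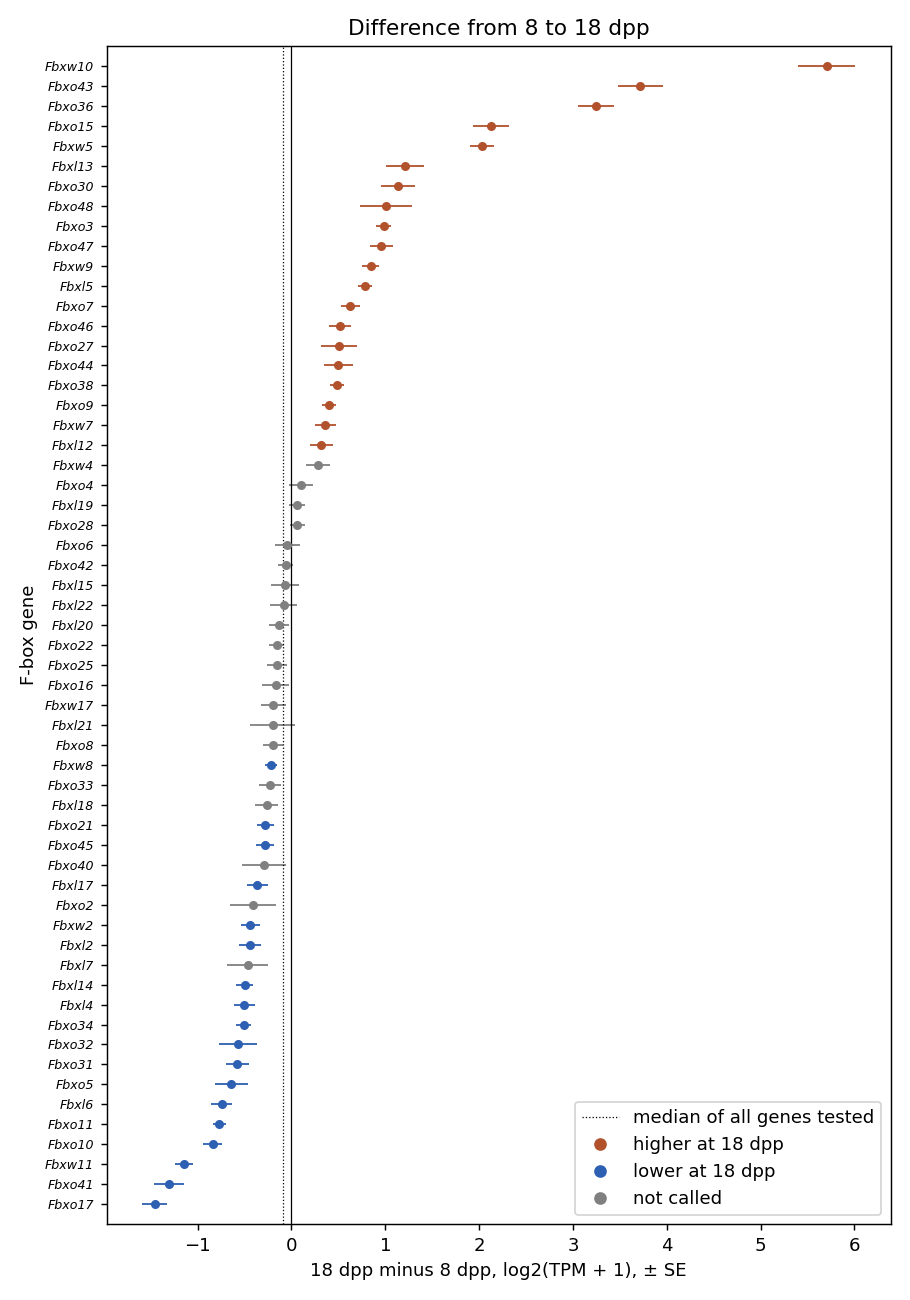
Log2 difference of log2(TPM + 1) between 18 and 8 dpp for each of 58 F-box genes, with bars of 1 SE, colored by the direction of the limma call and with a dotted line at the median of all genes. The rises reach 5.70 for Fbxw10 and the falls -1.46 for Fbxo17.

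The largest rises exceeded the largest falls. Fbxw10 (ENSMUSG00000090173, chr11:62847069-62877465, plus strand), a WD40-repeat member, had the largest. It was at 0.17, 0 and 0 TPM in the 3 mice at 8 dpp and at 0.53, 0.51, 0.34, 0.82 and 0.6 TPM at 14 dpp. It was at 18.8, 7.86, 6.96, 7.38 and 16.1 TPM in mice 1 to 5 at 16 dpp and at 84.6, 83.2, 67, 31.1 and 30.8 TPM at 18 dpp. The ages through 14 dpp stayed under 1 TPM and every mouse at 16 and 18 dpp lay above them, with mice 1 and 5 highest at 16 dpp and mice 4 and 5 lowest at 18 dpp. The difference from 8 to 18 dpp was the largest of the family (log2 difference 5.70, SE 0.3, adjusted p = 5.64e-15), on the log2(TPM + 1) scale, which understates the changes of low genes. Without mice 4 and 5 of 18 dpp the log2 difference was 6.22. At 16 dpp, mice 1 and 5 also had the highest spermatocyte sums, 2669 and 1977 TPM against 1403 to 1736 TPM in the other mice.

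Fbxo36 and Fbxw5 rose from levels that were already measurable at 8 dpp. Fbxo36 (ENSMUSG00000073633, chr1:84839841-84900487, plus strand) was at 9.9, 8.13 and 11.3 TPM at 8 dpp and 22.2, 17.6, 13.8, 16 and 21.8 TPM at 12 dpp. At 16 dpp it was at 61.7, 48.8, 47.6, 43.7 and 46.2 TPM and at 18 dpp at 117, 136, 116, 78.6 and 70.2 TPM, so that no 18 dpp mouse overlapped a 16 dpp mouse (log2 difference 3.24, SE 0.191, adjusted p = 4.57e-14 from 8 to 18 dpp). Fbxw5 (ENSMUSG00000015095, chr2:25500750-25505471, plus strand), known as a regulator of centrosome duplication through SAS6, was at 71.7, 79.4 and 72.5 TPM at 8 dpp and 98, 85.4, 83.2, 96.4 and 89.4 TPM at 14 dpp. It then reached 171, 140.2, 136, 137 and 187 TPM at 16 dpp and 382, 345, 358, 249 and 230.4 TPM at 18 dpp, again with mice 4 and 5 the lowest of their age and above all mice at 16 dpp (log2 difference 2.03, SE 0.128, adjusted p = 1.83e-13). Without mice 4 and 5 the log2 differences were 3.53 for Fbxo36 and 2.26 for Fbxw5. Fbxl13 ended at a low level, 2.99, 2.86, 3.17, 1.52 and 2.17 TPM at 18 dpp after 0.85, 0.44 and 0.27 TPM at 8 dpp (log2 difference 1.21, SE 0.202, adjusted p = 6.87e-06). Fbxo30, an F-box protein studied in muscle wasting, went from 30.9, 25.5 and 26.7 TPM at 8 dpp to 86.5, 85.7, 74.6, 38.1 and 42.4 TPM at 18 dpp (log2 difference 1.14, SE 0.183, adjusted p = 4.22e-06). Its mice 4 and 5 stood well below the other 3 at 18 dpp, and without them its log2 difference was 1.54.

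**Figure D3:**
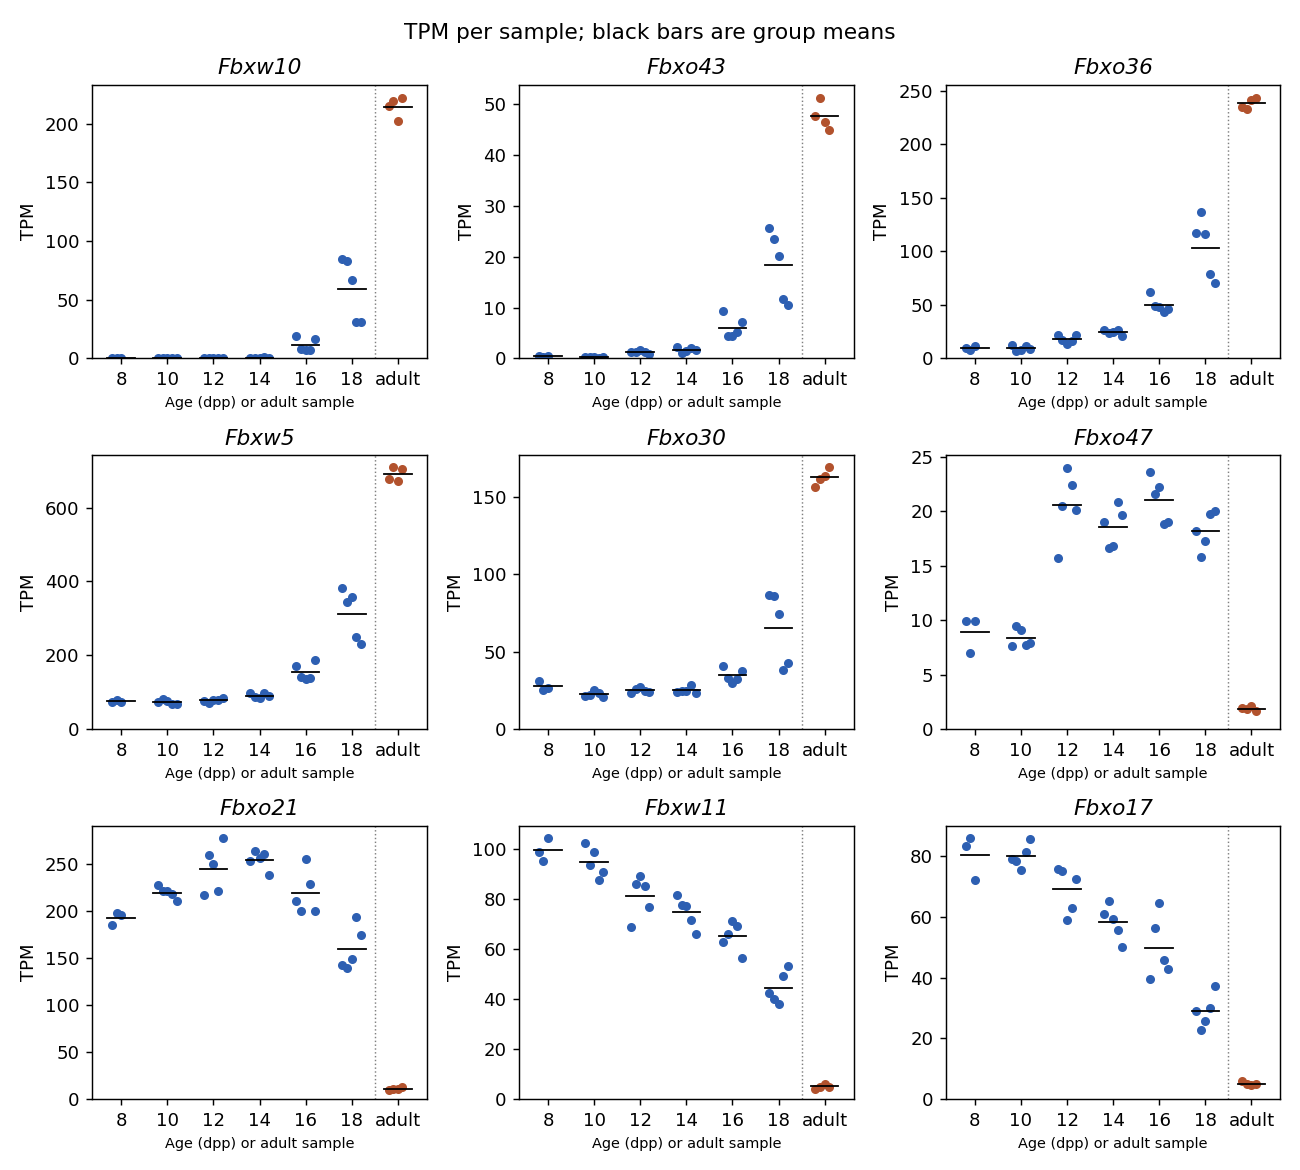
TPM (vertical, linear) of 9 F-box genes in every mouse by age and in every adult sample (points), with black bars at the group means. Fbxw10 stays under 1 TPM through 14 dpp and reaches 30.8 to 84.6 TPM at 18 dpp, and Fbxo17 and Fbxw11 decline with age.

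The members listed under germ cells and reproduction rose together from 8 to 18 dpp. All 5 in the gene table rose (median log2 difference 1.01, with 31.8% of all genes higher), also with median-of-ratios scaling and quantile normalization. The list held 7 genes, and Fbxo24 and Fbxo39 were outside the gene table. It was drawn up with earlier results of these data known and is no independent evidence of its direction. No role in germ cells is given here for Fbxo48. Fbxo43 (ENSMUSG00000048230, chr15:36150060-36164884, minus strand), the APC/C inhibitor also named EMI2 that holds meiotic arrest in oocytes, was at 0.46, 0.32 and 0.39 TPM at 8 dpp and 2.23, 1.11, 1.41, 2.04 and 1.65 TPM at 14 dpp. It was at 9.27, 4.32, 4.39, 5.12 and 7.24 TPM at 16 dpp and 25.6, 23.5, 20.2, 11.7 and 10.6 TPM at 18 dpp, and every 18 dpp mouse was above every 16 dpp mouse (log2 difference 3.72, SE 0.24, adjusted p = 2.84e-13 from 8 to 18 dpp). Fbxo15, a target gene of pluripotency factors, was at 5.57, 4.97 and 4.14 TPM at 8 dpp and 21.1, 23, 26.7, 23.9 and 29.2 TPM at 18 dpp, with no overlap (log2 difference 2.13, SE 0.193, adjusted p = 2.15e-10). Fbxo7, which acts in the parkin pathway and is needed for male fertility in mice, was at 47.1, 40.00 and 48.7 TPM at 8 dpp and 69.99, 73.2, 75.8, 64.5 and 68 TPM at 18 dpp (log2 difference 0.63, SE 0.102, adjusted p = 5.26e-06). Fbxo48 stayed low, at 0.55 to 2.39 TPM at 8 dpp and 2.55 to 4.47 TPM at 18 dpp (log2 difference 1.01, SE 0.279, adjusted p = 0.00239).

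Fbxo47 had another time course. This gene (ENSMUSG00000070336, chr11:97853826-97884154, minus strand) is required for meiotic progression in mouse spermatocytes. It was at 9.89, 7 and 9.93 TPM at 8 dpp and 7.59, 9.5, 9.08, 7.72 and 7.87 TPM at 10 dpp, and at 15.7, 20.5, 24, 22.4 and 20.1 TPM at 12 dpp, above every younger mouse (log2 difference 1.2, SE 0.107, adjusted p = 6.09e-09 from 10 to 12 dpp). At 18 dpp it was at 18.1, 15.8, 17.3, 19.7 and 20.03 TPM, within the range of the 12 dpp mice. In the adult pachytene/diplotene samples it was at 1.89, 1.86, 2.09 and 1.61 TPM. Its rise thus lay in a single step, where those of Fbxw10, Fbxo43, Fbxo36 and Fbxw5 went on to 18 dpp.

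Among cell-cycle regulators and inhibitors of the APC/C, 3 rose and 5 fell of the 10 members in the gene table (12 listed, with Fbxl8 outside the table and Fbxo1 not matched), beside 31.8% and 36.3% of all genes. The fallen members included Fbxo5, also named EMI1, the mitotic paralog of Fbxo43. It was at 15.1, 12 and 17.6 TPM at 8 dpp and 6.82, 8.56, 7.37, 12.2 and 11.7 TPM at 18 dpp, where mouse 4 exceeded the lowest 8 dpp mouse (log2 difference -0.64, SE 0.173, adjusted p = 0.00199). Thus the pair of APC/C inhibitors moved in opposite directions. Fbxw11 (ENSMUSG00000020271, chr11:32642724-32746816, plus strand), a β-TrCP protein that recognizes phosphorylated β-catenin and IκBα, was at 98.9, 95.2 and 104 TPM at 8 dpp and 42.6, 40.02, 38.1, 49.1 and 53.3 TPM at 18 dpp, with no overlap (log2 difference -1.15, SE 0.0978, adjusted p = 6.43e-11). Its paralog Btrc, an F-box gene outside the symbol rule, rose over the same ages (log2 difference 0.95, SE 0.0971, adjusted p = 1.93e-09). Fbxo31, a receptor for cyclin D1, fell (log2 difference -0.58, SE 0.121, adjusted p = 0.000141), as did Fbxl14, a receptor for SNAI1 (log2 difference -0.50, SE 0.0948, adjusted p = 4.08e-05), and Fbxl2 (log2 difference -0.44, SE 0.121, adjusted p = 0.0021). Fbxw7, the receptor for cyclin E, MYC and JUN, was higher at 18 dpp, at 29.9, 33.1, 27.5, 24.6 and 21.5 against 22.9, 18.9 and 20.8 TPM (log2 difference 0.36, SE 0.11, adjusted p = 0.00499), and missed the threshold with the 2 ages alone in the model (adjusted p = 0.0518). Fbxl12 rose by 0.32 on the log2 scale (adjusted p = 0.0202), a call lost in 4 alternatives, among them without 8 dpp mouse 2 and without 18 dpp mouse 3 (adjusted p of 0.0522 or more). Fbxo4 and Fbxl7, a receptor for Aurora A, did not pass the test, with log2 differences of 0.10 and -0.46. The fall of Fbxl7 passed in 8 alternatives, among them without 8 dpp mouse 1, 10 dpp mouse 4, 14 dpp mouse 7, 18 dpp mouse 2 or 18 dpp mouse 4 (adjusted p of 0.00257 to 0.0485).

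On the log2(TPM + 1) scale, which understates the changes of low genes such as Fbxo41, the largest falls were those of Fbxo17, Fbxo41 and Fbxw11. Fbxo17 (ENSMUSG00000030598, chr7:28716804-28738144, plus strand), of the glycoprotein-binding group, was at 83.3, 85.7 and 72 TPM at 8 dpp and 29, 22.9, 25.7, 29.98 and 37 TPM at 18 dpp, so every 18 dpp mouse was below every 8 dpp mouse (log2 difference -1.46, SE 0.134, adjusted p = 2.63e-10). Mice 4 and 5 of 18 dpp were again nearest to the younger ages. Fbxo41, known from neurons, was at 5.58 to 5.76 TPM at 8 dpp and 0.95 to 2.51 TPM at 18 dpp (log2 difference -1.30, SE 0.163, adjusted p = 7.59e-08). Fbxo10, a receptor for BCL2, was at 19.5 to 20.4 TPM at 8 dpp and 9.41 to 13.3 TPM at 18 dpp (log2 difference -0.84, SE 0.101, adjusted p = 3.76e-08). Fbxo11, a receptor for BCL6, was at 77.2 to 82.9 and 42.6 to 49.1 TPM (log2 difference -0.77, SE 0.0701, adjusted p = 2.41e-10). Fbxl6 fell by 0.74 on the log2 scale (adjusted p = 2.43e-06). These falls ran beside those of the Sertoli and spermatogonium marker sums given above, and the part of both cell types in them was not tested.

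The remaining groups were mixed. Of the 5 members listed under glycoprotein binding, Fbxo27 rose (log2 difference 0.51, SE 0.193, adjusted p = 0.0222). It went from 7.32, 7.09 and 6.89 to 6.77, 9.69, 8.11, 13.9 and 16.9 TPM, with mice 4 and 5 the highest at 18 dpp. Without them its log2 difference was 0.17 (adjusted p = 0.350). Fbxo44 rose (log2 difference 0.50, SE 0.151, adjusted p = 0.00481), Fbxo17 fell, and Fbxo2 and Fbxo6 did not pass the test. The call of Fbxo44 was lost without 8 dpp mouse 1 (adjusted p = 0.0503), and Fbxo2 passed as a fall without 8 dpp mouse 3 (adjusted p = 0.0441) and with quantile normalization. Fbxo27 and Fbxo17 are neighbors on chromosome 7, 17465 bases apart, and Fbxo6, Fbxo44 and Fbxo2 lie in a row on chromosome 4 with 659 and 138 bases between them. Fbxl5, the iron-sensing receptor for IRP2, rose from 87.6, 78 and 76.1 to 136, 144, 141, 131 and 142 TPM without overlap (log2 difference 0.78, SE 0.0733, adjusted p = 3.90e-10). Fbxl4, a mitochondrial protein, fell by 0.50 on the log2 scale (adjusted p = 0.000227). With Fbxo7 counted there too, the iron and mitochondria list had 2 rises and 1 fall of 3. Among 8 members studied in muscle or at synapses, Fbxo30 rose, Fbxo32, Fbxo41 and Fbxo45 fell and 4 did not pass the test, while 1 rose and 7 fell with quantile normalization. Fbxo32 is the muscle ligase atrogin-1, and Fbxo45 acts at synapses. The falls of both were lost with median-of-ratios scaling (adjusted p = 0.0527 and 0.260), and that of Fbxo45 also without 8 dpp mouse 1 or 8 dpp mouse 3. None of the 3 genes listed for DNA damage and helicase functions, Fbh1, Fbxo42 and Fbxo22, passed the limma test from 8 to 18 dpp, and 0 had an unadjusted p under 0.05. Among the highest members, Fbxl19, a CXXC zinc-finger protein of CpG islands, had a log2 difference of 0.06 and did not pass, but passed as a rise with median-of-ratios scaling (0.24, adjusted p = 0.00445). It rose from 10 to 12 dpp (log2 difference 0.31, SE 0.0731, adjusted p = 0.00321) and fell from 16 to 18 dpp (log2 difference -0.36, SE 0.0731, adjusted p = 0.000179). Fbxo3 rose from 54.2, 49.5 and 49.3 to 99.3, 102, 105, 102 and 100.1 TPM (log2 difference 0.98, SE 0.0811, adjusted p = 3.29e-11).

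Most changes fell into 3 of the 5 steps between neighboring ages, and the same steps held most of the changes over all genes. From 8 to 10 dpp, 0 members fell (beside 0.226% of all genes and 0.198% of protein-coding genes), with 2 at an unadjusted limma p under 0.05. In this step 2 members rose (3.39%, beside 0.977% of all genes and 1.29% of protein-coding genes). These were Fbxo4 (log2 difference 0.58, SE 0.126, adjusted p = 0.0158) and Fbxo28 (log2 difference 0.34, SE 0.0793, adjusted p = 0.0254), and neither call held without 8 dpp mouse 1 or 8 dpp mouse 3. That of Fbxo28 was also lost without 8 dpp mouse 2, 10 dpp mouse 1 or 10 dpp mouse 2 (adjusted p of 0.0565 to 0.145 over 8 alternatives). From 10 to 12 dpp, 5 members fell (8.47%, beside 9.39% of all genes and 11.3% of protein-coding genes). Over the same ages 12 rose (20.3%, beside 12% of all genes and 15.2% of protein-coding genes). Fbxo47 led, followed by Fbxo36 (log2 difference 0.86, SE 0.165, adjusted p = 0.000358) and Fbxo15 (log2 difference 0.87, SE 0.167, adjusted p = 0.00037). Fbxo43 rose by 0.83 in the same step (adjusted p = 0.00465), and Fbxo4, Fbxo45 and Fbxo11 fell by 0.46, 0.28 and 0.20. The fall of Fbxo11 was lost without 10 dpp mouse 1, 10 dpp mouse 3, 12 dpp mouse 1 or 12 dpp mouse 5 (adjusted p of 0.0530 to 0.0646). Without 10 dpp mouse 1 the step had 2 falls, and 3 without 10 dpp mouse 2, 10 dpp mouse 3, 12 dpp mouse 1 or 12 dpp mouse 5. From 12 to 14 dpp, limma called 0 rises (beside 0.157% of all genes and 0.117% of protein-coding genes). It called 0 falls (beside 0.0147% and 0.00732%), with 3 members higher and 2 lower at an unadjusted p under 0.05.

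Later steps held the larger changes. From 14 to 16 dpp, 9 members rose (15.3%, beside 12.7% of all genes and 13.5% of protein-coding genes). Over the same ages 9 fell (15.3%, beside 11.3% of all genes and 14.1% of protein-coding genes). With median-of-ratios scaling 12 rose and 4 fell, and with the replicate block 10 rose and 3 fell. Fbxw10 rose most (log2 difference 2.89, SE 0.26, adjusted p = 4.44e-09), then Fbxo43 (log2 difference 1.36, SE 0.208, adjusted p = 1.71e-05) and Fbxw5 (log2 difference 0.75, SE 0.111, adjusted p = 1.02e-05). Fbxo32 (log2 difference -0.81, SE 0.173, adjusted p = 0.00104), Fbxo10 (log2 difference -0.40, SE 0.0875, adjusted p = 0.00146) and Fbxl22 (log2 difference -0.42, SE 0.126, adjusted p = 0.0167) led the falls, the last of them lost without 16 dpp mouse 1 (adjusted p = 0.0631). The number that fell was 3 without 14 dpp mouse 6 or without 16 dpp mouse 1, and 4 without 16 dpp mouse 5. From 16 to 18 dpp, 12 members rose (20.3%, beside 23.4% of all genes and 23.7% of protein-coding genes). Over the same ages 24 fell, beside 30.6% of all genes. Among protein-coding genes alone 39.3% fell in this step, close to the 40.7% of members. Fbxw10 (log2 difference 2.26, SE 0.26, adjusted p = 1.15e-06), Fbxo43 (log2 difference 1.42, SE 0.208, adjusted p = 5.49e-06) and Fbxw5 (log2 difference 1.00, SE 0.111, adjusted p = 1.07e-06) rose again. Fbxo17 (log2 difference -0.76, SE 0.116, adjusted p = 8.35e-06), Fbxw11 (log2 difference -0.54, SE 0.0847, adjusted p = 1.06e-05) and Fbxo21 (log2 difference -0.46, SE 0.0796, adjusted p = 3.76e-05) fell. The direction of this step depended on scaling, with 20 rises and 9 falls under median-of-ratios scaling and 11 and 28 under quantile normalization. Without mice 4 and 5 of 18 dpp it had 14 rises and 31 falls. Neighboring steps share the mice of the age between them, so they are not independent. In all, 16 members changed in no step (27.1%, beside 25.6% of protein-coding genes), 19 in 1 (32.2%, beside 39.9%), 18 in 2 (30.5%, beside 25.2%) and 6 in 3 (10.2%, beside 9.07%). The 6 were Fbxo36, Fbxo43 and Fbxw9, which rose in each of their steps, Fbxo34, which fell in each, and Fbxl22 and Fbxo4, which rose and then fell.

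**Figure D4:**
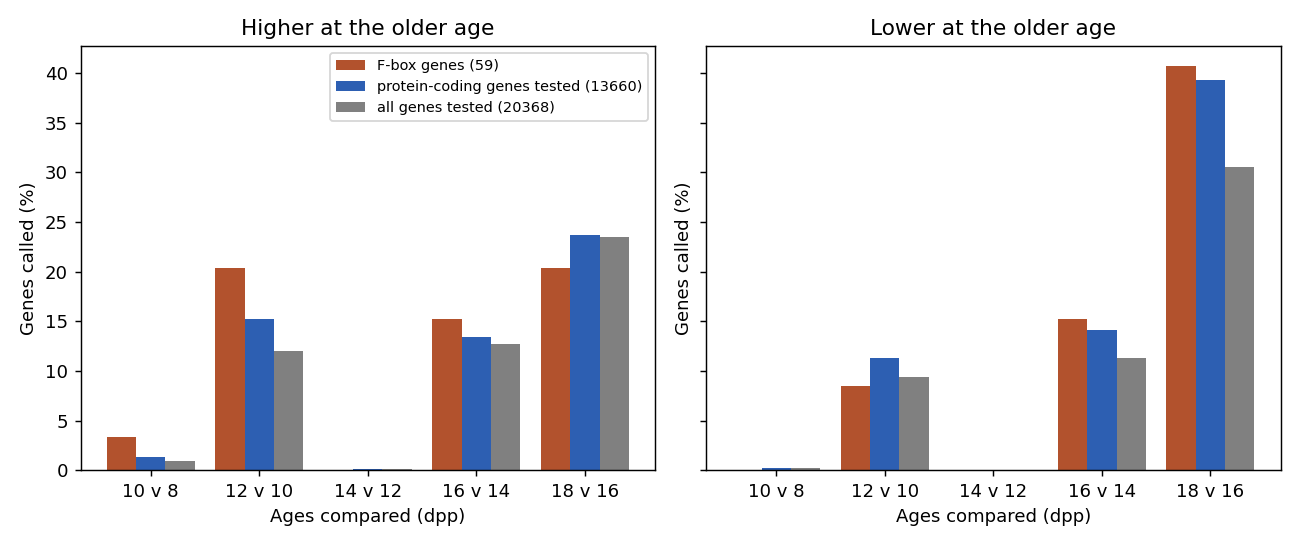
Percentage of the 59 F-box genes, of 13660 protein-coding genes and of 20368 genes tested that were higher (left) or lower (right) at the older age of each neighboring pair, by limma at an adjusted p under 0.05. The F-box bars stand for 12 rises and 24 falls from 16 to 18 dpp and are empty from 12 to 14 dpp.

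Fbxo21, the most abundant member on average, had its highest values in the middle ages. It was at 185, 197 and 195 TPM at 8 dpp, 253, 263, 256, 260.4 and 237 TPM at 14 dpp and 142, 139, 149, 194 and 174 TPM at 18 dpp. Every 14 dpp mouse was above every mouse of both other ages. No step passed the test as a rise, and the steps from 14 to 16 and from 16 to 18 dpp passed as falls. Over the whole interval it fell (log2 difference -0.28, SE 0.0919, adjusted p = 0.00878), a call lost with median-of-ratios scaling (adjusted p = 0.228) and with the 2 ages alone in the model (adjusted p = 0.0609).

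In the adult pachytene/diplotene samples most members were lower than at 18 dpp and 8 were higher. Their table was normalized separately, so levels are set side by side without a test. In these samples 42 of 59 members (71.2%) had a mean of at least 3 TPM, beside 67.7% of the 13659 protein-coding genes compared, and 8 were under 1 TPM. All 4 adult values lay above all 5 values at 18 dpp in 8 members (13.6%, beside 23.1% of protein-coding genes) and below them in 41 (69.5%, beside 61.3%). The median log2 difference of adult against 18 dpp means was -1.05 over the members and -0.85 over protein-coding genes. The 8 above were Fbxl13, Fbxw10, Fbxo43, Fbxo30, Fbxo36, Fbxw5, Fbxw7 and Fbxo7, all of which had risen from 8 to 18 dpp. Of the 20 members that had risen, these 8 were above (40%, beside 60.3% of risen protein-coding genes), 5 were below (25%, beside 21.4%) and 7 overlapped. All 19 that had fallen were below, beside 90.2% of fallen protein-coding genes, and so were 17 of the 20 that had not passed the test (85%, beside 66.2%), with 3 overlapping.

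Fbxw5, Fbxo36, Fbxw10, Fbxo30 and Fbxl5 were the most abundant members in the adult samples. Fbxw5 was at 678, 709, 672 and 705 TPM in the 4 adult samples, Fbxo36 at 235, 233, 242 and 244 TPM and Fbxw10 at 215, 219, 202 and 222 TPM. Fbxo30 was at 157, 161, 164 and 169 TPM and Fbxl5 at 147, 139, 147 and 142 TPM, the latter overlapping its 18 dpp range. Fbxo43 was at 47.7, 51.2, 46.4 and 44.9 TPM and ranked 11. Fbxo15, at 16.1, 11.8, 19.5 and 13.7 TPM, ranked 21 and was below its 18 dpp range. The largest difference from 18 dpp was that of Fbxl13, at 19, 13.1, 24.4 and 22.8 TPM (2.54 on the log2 scale), followed by Fbxw10 (1.97), Fbxo43 (1.41), Fbxo30 (1.38) and Fbxo36 (1.24). Most other members were lower. Fbxo21 was at 10.5, 10.9, 11.2 and 12.7 TPM (-3.69), Fbxw2 at 4.15, 5.3, 5.22 and 3.35 TPM (-3.66) and Fbxl6 at 3.78, 2.71, 2.81 and 2.01 TPM (-3.29). Fbxo31 (-3.10) and Fbxo10 (-3.07) made up the rest of the 5 largest decreases on the log2(TPM + 1) scale, which understates the changes of low genes. By the ratio of the 18 dpp mean to the adult mean, Fbxo32 had the largest decrease. Its ratio was 106 (5.56 against 0.0525 TPM), followed by 60.1 for Fbxl7, against 14.1 for Fbxo21. Fbxo17 was at 5.99, 5.03, 4.69 and 5.07 TPM, Fbxw11 at 4.36, 5.11, 6.35 and 4.84 TPM and Fbxo5 at 1.5, 1.64, 1.69 and 0.88 TPM. Of the genes outside the juvenile gene table, Fbxo24 was at 13.1, 8.32, 13 and 12.2 TPM and Fbxo39 at 5.86, 2.38, 6.81 and 4.92 TPM in the adult samples.

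The adult samples also differed in cell makeup. Their summed Sertoli markers were 43.6 to 67.9 TPM and their spermatogonium markers 29.3 to 35.4 TPM, against 454 to 655 TPM for the latter at 18 dpp. Of the 6 spermatid markers, none was at 0, Prm1, Prm2, Tnp1 and Tnp2 were each between 184 and 311 TPM, and the 6 summed to 872 to 1189 TPM, against 16.98 TPM or less in the juvenile mice. The Leydig sum was 206 to 270 TPM (median 229.7), within the range of 169 to 472 TPM (median 186) at 18 dpp, with Insl3 alone at 153 to 208 TPM. Insl3 and Cyp17a1 overlapped their 18 dpp ranges. The other Leydig markers were below every 18 dpp mouse. Hsd3b1 was at 4.54 to 10.9 TPM against 35.6 to 88.4 TPM, and Cyp11a1 at 12.9 to 14.8 against 20.8 to 96.6 TPM. Star was at 6.33 to 8.29 against 11.1 to 24.5 TPM, and Lhcgr at 0.2 to 0.45 against 2.79 to 7.31 TPM. The part of spermatid RNA and of somatic RNA in the adult levels was not tested.

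**Figure D5:**
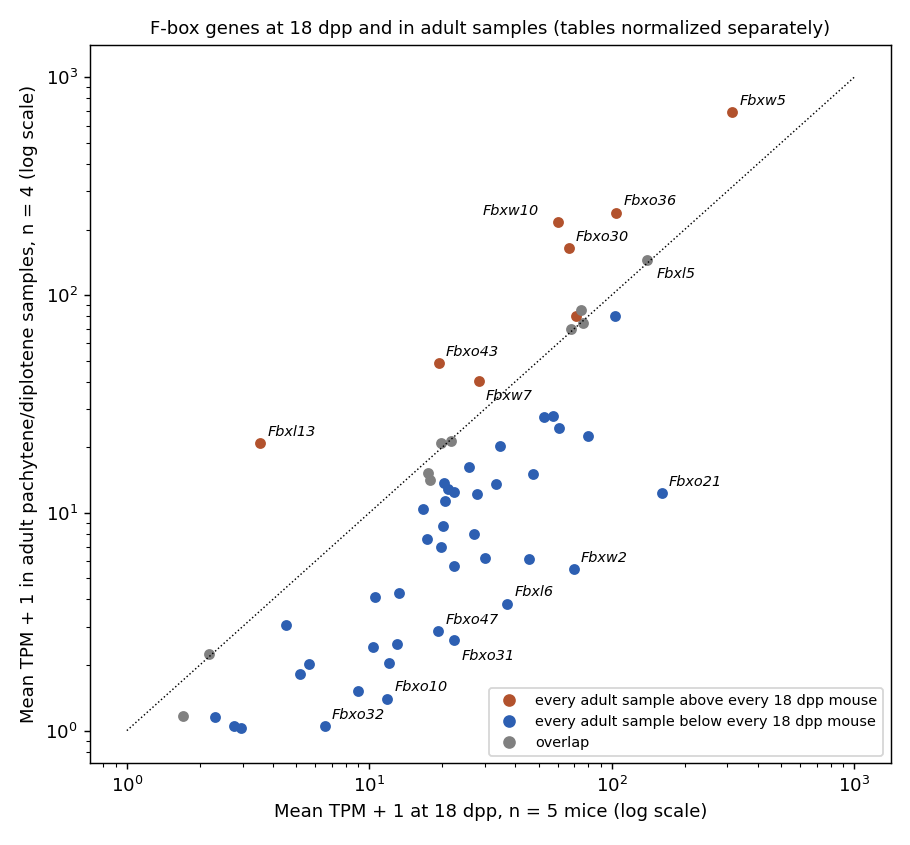
Mean TPM + 1 of each F-box gene in the 4 adult pachytene/diplotene samples (vertical) against that in the 5 mice at 18 dpp (horizontal), both on log axes, colored by whether the groups overlap and with a dotted line of equality. The 8 genes with every adult value higher lie above the line, and 41 with every adult value lower lie below it.

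Transcript usage, the percentage of a gene's TPM carried by each of its transcripts, was compared between 8 and 10 dpp and 16 and 18 dpp. Of 114 transcripts tested in 28 members, 3 in 2 members changed by at least 20 percentage points at an adjusted limma p under 0.05, beside 2.3% of all transcripts tested. Fbxo3-201 went from 35.1% ± 2.68 (SD, n = 8) to 66.5% ± 4.77 (SD, n = 10) of Fbxo3 transcripts (31.4 points, SE 1.86, adjusted p = 1.05e-08). Fbxo3-202 had the largest fall in that gene, from 27.7% to 9.91%. Fbxo44-208 went from 7.23% ± 13.4 to 49.8% ± 19.0 (42.6 points, SE 7.69, adjusted p = 0.00109) and Fbxo44-201 from 42.0% to 10.6%, with a wide spread between mice. Transcript shares are estimates where transcripts share most of their sequence. Fbxl5-201 went from 68.6% to 85.5%, under the threshold of 20 points. With a threshold of 10 points, 11 transcripts were called.

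The partners of F-box proteins in the ligase were mixed. For comparison, 31.8% of all genes rose and 36.3% fell from 8 to 18 dpp (33.1% and 41.4% of protein-coding genes). The median log2 difference of all genes was -0.09. Of 5 SCF core genes, 2 rose and 2 fell from 8 to 18 dpp. The cullin Cul7 had the largest fall (log2 difference -1.08, SE 0.0956, adjusted p = 1.28e-10) and the RING gene Rnf7 the largest rise (log2 difference 0.50, SE 0.0655, adjusted p = 1.56e-07). The adaptor Skp1a fell slightly (log2 difference -0.16, SE 0.0511, adjusted p = 0.00779), the scaffold Cul1 rose slightly (log2 difference 0.26, SE 0.0642, adjusted p = 0.000716), and the other RING gene, Rbx1, did not pass the test (log2 difference 0.17, SE 0.0956, adjusted p = 0.112). Of 10 genes for neddylation, the modification that activates cullins, 8 rose and 0 fell (median 0.44), and of 9 genes of the COP9 signalosome, which removes it, 6 rose and 0 fell (median 0.69). With median-of-ratios scaling all of these rose, 10 and 9, and with quantile normalization 6 and 6. Of 3 genes for exchange of F-box proteins on CUL1, 1 rose and 1 fell. Of 8 ubiquitin-conjugating enzymes, 1 rose and 3 fell. The rise was that of Ube2d2b (log2 difference 6.98, SE 0.361, adjusted p = 4.08e-15), a copy of Ube2d2a with which reads may be shared. Of 9 measured F-box genes with other symbols, 2 rose and 4 fell, or 4 and 3 with median-of-ratios scaling, and Lrrc29 had the largest rise (log2 difference 2.33, SE 0.29, adjusted p = 6.79e-08). Of 19 genes for named substrates, 6 rose and 11 fell (median -0.61). The largest falls were those of Nfkbia, which encodes IκBα (log2 difference -1.45, SE 0.172, adjusted p = 3.19e-08), and Myc (log2 difference -1.36, SE 0.204, adjusted p = 1.48e-06). These are RNA levels, and substrate proteins were not measured here. Of 12 genes of the APC/C and its activators, 5 rose and 5 fell. Over the 75 pathway genes, 31 rose and 26 fell, beside the backgrounds of 31.8% and 36.3% given above, with 42 and 22 under median-of-ratios scaling and 27 and 28 under quantile normalization.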

How the data were processed

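Poly-A RNA of germ cells from 28 mice at 6 ages and of 4 adult samples was analyzed. Per the labels and the submitters' processing notes, the authors aligned reads to mm10 with Bowtie 1.0.0 and quantified them with RSEM 1.2.8, and they deposited TPM per transcript for the juvenile mice and TPM per gene for the adult samples. The deposited juvenile gene values are a score, exp(log2(TPM + 1)) - 1, listed for genes with at least 3 TPM in a mouse. TPM was recovered by inverting it and differed from the summed transcripts by more than 0.2 TPM in 80 of 20368 genes, with 0.46 TPM as the largest gap in a member. Depth is unknown, and no counting error was computed. A deposited column assigning genes to meiotic substages holds a finding of the authors and was not used.

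Tests used limma 3.58.1 in R 4.3.3 with a mean-dependent prior variance on log2(TPM + 1), all 6 ages in 1 model, over all 20368 genes, with Benjamini-Hochberg adjusted p under 0.05. Each mouse was a replicate. Usage was tested for transcripts averaging 1 TPM or more in genes averaging 3 TPM or more, with a threshold of 20 percentage points. The procedure was tested on simulated data. Positions are from GENCODE M21 (GRCm38), and promoters from RefSeq.

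The members and all gene lists were chosen with earlier results of these data known. Genes were named as the 8 highest members, the 8 largest rises and 8 largest falls from 8 to 18 dpp, up to 3 per direction and step by p, the 5 highest in adult samples and the 5 largest differences of adult samples in each direction, the cell-cycle and germ-cell lists, the members with a usage call and those at 3 TPM in 1 or 2 mice, plus the 2 largest pathway changes in each direction with Skp1a, Cul1 and Rbx1. Others were named after their values were seen, and 1 member is counted but not reported by name here. Alternatives were other pseudocounts, filters, scalings, priors and samples, each mouse left out in turn, and the replicate number as a block.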

Additional observations from a re-analysis of the deposited data

Results flagged for a closer look

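In 12 of 234 groups of 4 or 5 samples (5.13%) over 39 named members, the highest or lowest sample lay farther from the rest than the 95% critical value of Dixon's test, and chance alone gives about 5% of groups. At 10 dpp, Fbxl13 was at 0 TPM in mouse 4 against 0.2 to 0.28 TPM in the others, Fbxl2 at 6.49 TPM in mouse 2 against 5.03 to 5.45, Fbxo2 at 3.07 TPM in mouse 1 against 1.83 to 2.14, and Fbxo41 at 3.69 TPM in mouse 4 against 4.49 to 4.58. At 12 dpp, Fbxo5 was at 20.6 TPM in mouse 4 against 11.4 to 13.3. At 14 dpp, Fbxo30 was at 28.4 TPM in mouse 6 against 23.5 to 24.5 and Fbxo40 at 3.23 TPM in mouse 1 against 0.84 to 1.52, its only value over 3 TPM. At 16 dpp, Fbxl12 was at 20.9 TPM in mouse 4 against 18.1 to 18.9 and Fbxo36 at 61.7 TPM in mouse 1 against 43.7 to 48.8. At 18 dpp, Fbxo28 was at 16.2 TPM in mouse 2 against 20.2 to 21.5. Among the adult samples, Fbxl14 was at 8.74 TPM in sample 1 against 7.3 to 7.48 and Fbxl7 at 0.13 TPM in sample 4 with the other 3 at 0. Groups of 3 mice (8 dpp) were not examined.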

How the results depend on the processing

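Of 153 recomputed counts other than those without a mouse, 139 stayed within 1.5 times. From 8 to 18 dpp, quantile normalization gave 32 falls. From 8 to 10 dpp the 2 rises became 1 with mice 1 to 3, 1 with the replicate block and 0 with the 2 ages alone. From 10 to 12 dpp the falls were 3 with no filter and 8 with median-of-ratios scaling. From 14 to 16 dpp the falls were 3 with no filter, 4 with median-of-ratios scaling, 3 with mice 1 to 3 and 3 with the replicate block. From 16 to 18 dpp, median-of-ratios scaling gave 20 rises and 9 falls and the 2 ages alone 15 falls. A usage threshold of 10 points gave 11 transcripts. The causes were not tested.

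Without each mouse in turn, 50 to 53 members differed among ages, 18 to 21 rose and 19 to 22 fell from 8 to 18 dpp, 0 to 2 rose from 8 to 10 dpp, 9 to 15 rose and 2 to 6 fell from 10 to 12 dpp, 0 changed from 12 to 14 dpp, 8 to 12 rose and 3 to 12 fell from 14 to 16 dpp, 10 to 13 rose and 16 to 28 fell from 16 to 18 dpp, 3 to 5 transcripts changed usage (5 without 8 dpp mouse 1), and 41 to 42 members were detected in adult samples.

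The replicate block gave 19 rises and 20 falls from 8 to 18 dpp and 50 members changed among ages. The numbers did not pair the mice: deviations of same-numbered mice had a median correlation of 0.0147 over 57 pairs, 3 of them over 0.1. Of 2297 recomputed values of 59 named differences, 2252 kept their side of the threshold, 29 lost it, 16 gained it and 0 reversed. TPM hides depth, which limits members under 3 TPM most.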
